A study of Mus musculus with 8 samples.

Results

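The 35 genes described here encode aminoacyl-tRNA synthetases, of which 20 make cytosolic enzymes and 15 make mitochondrial ones. They were taken by name, as all probes of the listed genes, out of 20887 mouse genes that a probe of the array could be matched to, and 44 probes stood for them. The samples are dendritic cells grown from bone marrow monocytes of C57BL/6 females, and each was hybridised to its own 1-colour Agilent array. The 4 LPS samples had spent 6 days in IL-4 and 10 ng/ml of GM-CSF, were then left overnight with 50 ng/ml of lipopolysaccharide (LPS, a wall component of Gram-negative bacteria) and are labelled mature cells of day 7. The 4 immature samples had the same 6 days in IL-4 and GM-CSF and no LPS. No untreated cells of day 7 were analysed here, so the effects of LPS and of the added night in culture cannot be told apart.

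Aminoacyl-tRNA synthetases join each amino acid to its tRNA, the step that supplies the ribosome with charged tRNA. Mammalian cells keep separate sets for the cytosol and for mitochondria, both encoded in the nucleus, and several cytosolic enzymes sit together in a multisynthetase complex held by scaffold proteins. Uncharged tRNA activates the kinase GCN2, and the transcription factor ATF4, made when that pathway is on, is known to induce many cytosolic synthetase genes but few mitochondrial ones.

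Levels are given as the log2 processed signal of the gene's brightest probe minus the 75th percentile of the array, so they compare arrays for 1 gene and never 1 gene with another. A change is the mean of the LPS arrays minus the mean of the immature arrays on that scale, with the standard error (SE) of limma's fit over all 12706 genes tested, and "rose" or "fell" means a limma adjusted p under 0.05. Of the 35 genes 34 were tested. The exception, the mitochondrial asparaginyl enzyme gene Nars2, was not well above background on any of the 8 arrays, with values from -6.30 to -6.19 on LPS arrays and from -6.99 to -6.33 on immature arrays. Between 47.5% and 48.4% of spots were well above background on LPS arrays and between 47.7% and 51.3% on immature arrays. All 8 arrays lay on 1 slide, with LPS samples in slide row 2 and immature samples in slide row 1, so slide row and group cannot be told apart. All 9 listed markers of dendritic cells were well above background on every array. So were all 6 macrophage and all 3 monocyte markers with a matched probe, so this does not single out dendritic cells. Of the 9, 4 rose and 4 fell, where 31.4% of all tested genes rose and 24.6% fell. Flt3 changed by 2.65 ± 0.18, Ccr7 by 2.12 ± 0.18 and Ciita by -1.34 ± 0.24. The labels do not say whether replicates are separate animals or cultures, so the p-values measure only the spread between these samples, which may be technical.

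Cytosolic synthetase genes were mostly lower after LPS: 13 of 20 fell, 1 (Wars) rose and 6 did not pass, with a median log2 change of -0.39. Of the 14 mitochondrial genes tested, 4 fell, 1 (Ears2) rose and 9 did not pass, with a median of -0.30. Among all tested genes 24.6% fell and 31.4% rose, 56.1% changed in either direction, and the median was 0.06. Of the 34 synthetase genes together, 17 fell and 2 rose, with a median of -0.34. The LPS arrays lay all below or all above the immature arrays for 11 cytosolic genes (9 of them below) and for 5 mitochondrial genes (4 of them below). Across all tested genes the groups were separated for 52.4%, and the LPS arrays lay all below for 22.2%. Only the cytosolic genes Vars and Iars fell at least 2-fold, which 8.74% of all tested genes did. The cytosolic median lay between -0.59 and -0.31 and the mitochondrial median between -0.51 and -0.19 in the 20 alternative settings of the analysis. The mitochondrial count moved with the scaling and with 1 array: 9 of 14 fell with the array median as the scale or with no scaling, 8 with scaling to the detected probes, 9 without immature replicate 3, and 0 with replicates 1 and 2 averaged to 1 sample. The cytosolic count was 14 or 15 under all of these but the last, which gave 6, and 9 with scaling to spike-ins. In bulk RNA, fewer cells of a kind and less RNA per cell cannot be told apart.

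**Figure D1:**
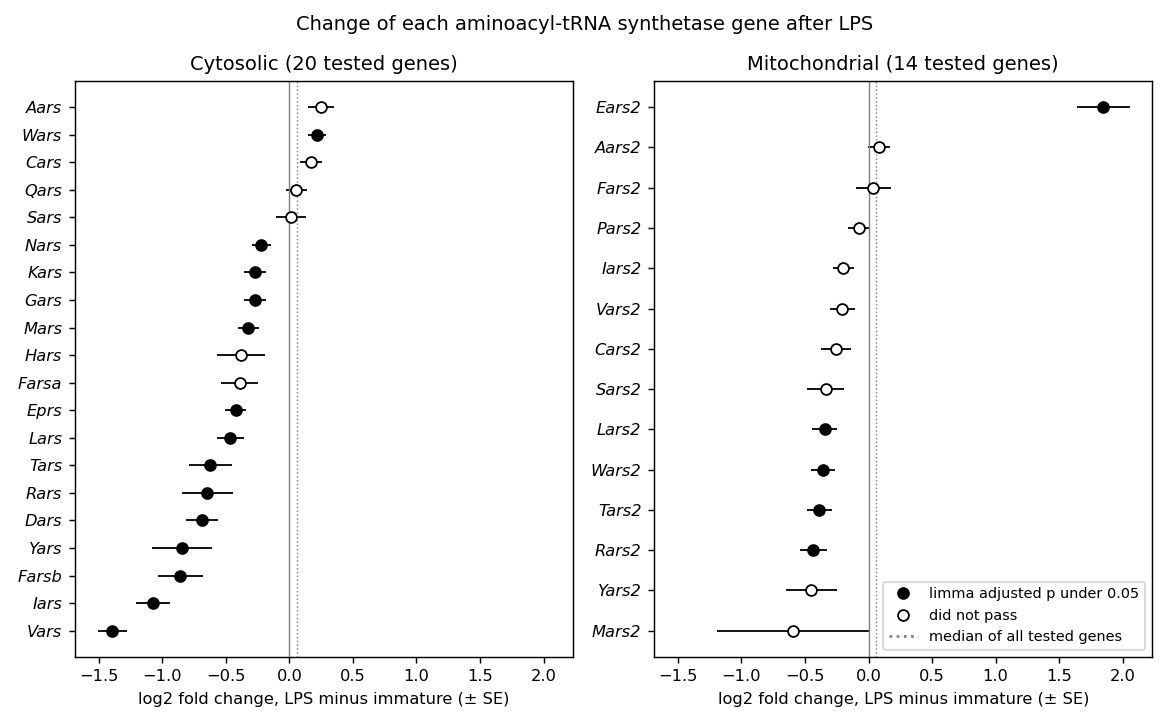
The log2 fold change (LPS minus immature, horizontal axis) of each tested synthetase gene with its SE, for 20 cytosolic and 14 mitochondrial genes from the largest rise to the largest fall. Filled points passed at a limma adjusted p under 0.05 and open points did not; the dotted line is the median of all tested genes, 0.06, and Ears2 stands alone on the right at 1.85.

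Vars, the gene of the cytosolic valyl enzyme, stood at 0.23, 0.22, 0.21 and 0.38 on LPS arrays 1 to 4, against 1.66, 1.76, 1.35 and 1.85 on immature arrays 1 to 4 (log2 levels). The highest LPS array lay nearly 1 log2 unit under the lowest immature array. The change was -1.39 ± 0.11 (SE, n = 4 per group), or 2.63-fold lower (limma adjusted p = 3.08e-05). Iars, which charges isoleucine and is part of the multisynthetase complex, stood at 1.99, 2.11, 2.003 and 2.41 on the LPS arrays, against 3.31, 3.40, 2.95 and 3.14 on the immature arrays. Its groups did not overlap either, and the change was -1.07 ± 0.13 (2.10-fold lower, limma adjusted p = 0.000234). Valine and isoleucine are branched-chain amino acids. Lars, the gene for the leucyl enzyme, the third of that kind and in human cells also described as a leucine sensor of the mTORC1 kinase, fell by 0.47 ± 0.11 on the log2 scale (limma adjusted p = 0.00584).

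Farsb encodes the beta subunit of the phenylalanyl enzyme, which works as a tetramer with the alpha subunit from Farsa. It stood at 1.28, 1.23, 1.31 and 1.61 on the LPS arrays, against 2.43, 2.49, 1.71 and 2.24 on the immature arrays. The groups did not overlap, with LPS replicate 4 and immature replicate 3 nearest to each other, and the change was -0.86 ± 0.18 (limma adjusted p = 0.00357). Farsa itself changed by -0.39 ± 0.15 and just missed the threshold (limma adjusted p = 0.0504), and its second probe gave -0.37. The aspartyl enzyme gene Dars stood at -0.95, -0.78, -0.97 and -0.84 on the LPS arrays, against -0.46, -0.36, -0.01 and 0.03 on the immature arrays. All LPS values were under all immature values, a change of -0.69 ± 0.13 (limma adjusted p = 0.00201).

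Yars and Rars fell with groups that overlapped. Yars, whose human enzyme releases fragments with cytokine activity, stood at -3.45, -3.60, -2.44 and -3.40 on the LPS arrays, against -2.42, -2.31, -2.52 and -2.26 on the immature arrays. LPS replicate 3 lay among the immature arrays, and the other LPS arrays well under them. The change was -0.84 ± 0.24 (limma adjusted p = 0.0159), and -0.20 with the normexp background correction, where the call was lost. Rars, the gene for the arginyl enzyme of the complex, stood at -1.38, -1.41, -1.46 and -1.23 on the LPS arrays, against -0.44, -0.31, -1.29 and -0.87 on the immature arrays. Immature replicate 3 lay within the range of the LPS arrays. The change was -0.64 ± 0.20 (limma adjusted p = 0.0245), and the call was lost in 6 of 19 alternative settings, among them leaving out immature replicate 1 or 2 or LPS replicate 1, 2 or 3.

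The other cytosolic genes that fell did so by less. Tars, for the threonyl enzyme, lay between 2.33 and 2.67 on the LPS arrays and between 2.62 and 3.38 on the immature arrays. Its groups overlapped at immature replicate 3, and the change was -0.62 ± 0.17 (limma adjusted p = 0.0131). Eprs, whose bifunctional product charges both glutamate and proline, lay between -0.41 and -0.18 on the LPS arrays and between -0.031 and 0.15 on the immature arrays, a change of -0.42 ± 0.08 with groups apart (limma adjusted p = 0.00263). Eprs belongs in human monocytes to the GAIT complex, which silences translation of some inflammatory transcripts after interferon gamma. Mars, for methionine, changed by -0.32 ± 0.08 (limma adjusted p = 0.0114) and Nars, for asparagine, by -0.22 ± 0.07 (limma adjusted p = 0.0308), both with groups apart, and the Nars call was lost in 10 of 19 alternative settings. Of the genes that did not pass, Hars, the histidyl enzyme gene, gave -0.38 ± 0.19. Its LPS arrays lay between 0.73 and 0.90, and its immature arrays at 1.53, 1.51, 0.63 and 1.22, so that immature replicate 3 was under all LPS arrays. The values above 0 were those of 4 genes: Aars (alanine) with 0.25 ± 0.10, Cars (cysteine) with 0.17 ± 0.09, Qars (glutamine) with 0.05 ± 0.08 and Sars (serine) with 0.01 ± 0.12. Aars had separated groups, with LPS arrays from 3.48 to 3.79 and immature arrays from 3.21 to 3.48, and a limma adjusted p of 0.0616.

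Wars was the only cytosolic gene to rise. Its tryptophanyl enzyme is known to be induced by interferon gamma and to be secreted during infection. It stood at 5.17, 5.14, 5.20 and 5.27 on the LPS arrays, against 5.03, 5.03, 4.95 and 4.90 on the immature arrays. The groups were apart by about 0.1 log2 unit, and the change of 0.22 ± 0.07 (limma adjusted p = 0.0256) was 1.16-fold. A second, dimmer Wars probe gave 0.25 and did not pass (limma adjusted p = 0.089 over all probes). The call was lost under each of the 5 other scalings of the arrays, where the change went down to 0.0084, and without immature replicate 4 or LPS replicate 1, 3 or 4.

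Gars and Kars each encode the cytosolic and the mitochondrial enzyme for their amino acid, glycine and lysine, from 1 gene. Gars stood at 5.82, 5.82, 5.91 and 6.02 on the LPS arrays, against 6.17, 6.29, 6.01 and 6.19 on the immature arrays. The groups met at LPS replicate 4 and immature replicate 3, and the change was -0.27 ± 0.09 (limma adjusted p = 0.0248). Kars stood at 4.07, 4.07, 4.14 and 4.11 on the LPS arrays, against 4.42, 4.49, 4.14 and 4.41 on the immature arrays. Its LPS values were close together and immature replicate 3 lay just above them, for a change of -0.27 ± 0.09 (limma adjusted p = 0.0302). The calls were lost in 8 (Gars) and 10 (Kars) of 19 alternative settings. Without this pair, 11 of 18 cytosolic genes fell and the median was -0.41.

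**Figure D2:**
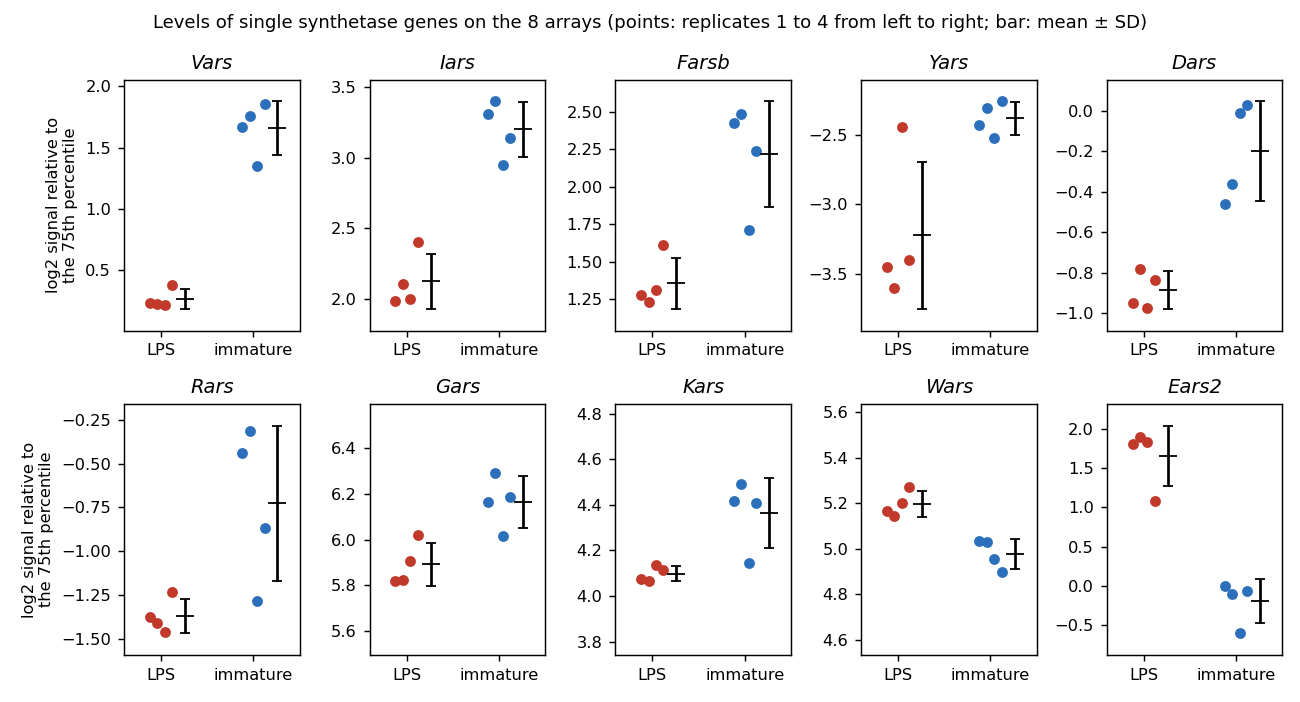
Log2 signal relative to the array's 75th percentile (vertical axis, each gene on its own scale) for 10 synthetase genes on the 4 LPS and the 4 immature arrays, with the mean ± SD beside the points. LPS lies under immature without overlap for Vars, Iars, Farsb, Dars and Kars and above it for Wars and Ears2; the groups overlap for Yars, Rars and Gars.

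Grouped by where the enzymes work, 7 of the 8 genes of the multisynthetase complex (Dars, Eprs, Iars, Kars, Lars, Mars and Rars, but not Qars) fell, with a median of -0.44. Among all tested genes 24.6% fell. The call was lost in 10 (Kars), 6 (Rars) and 2 (Mars) of 19 alternative settings. Differences between these and the following subgroups were not tested. Outside the complex 6 of 12 fell and Wars rose, with a median of -0.33. Of the genes for the complex's scaffold proteins, Aimp2 fell by 1.05 ± 0.16 and Eef1e1, also called AIMP3, by 0.94 ± 0.25 on the log2 scale (limma adjusted p = 0.000812 and 0.0129), while Aimp1 changed by -0.09 ± 0.11 and did not pass. By the fold of the catalytic domain, 6 of 9 class I genes fell, and 6 of 10 class II genes, Eprs being both. Of 12 cytosolic genes known as ATF4 targets in mammalian cells, 8 fell, Wars rose and 3 did not pass, with a median of -0.30. Of the other 8, 5 fell, with a median of -0.52.

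Promoters bear on this because synthetase genes are known to be induced through CARE elements, which ATF4 binds with C/EBP partners. A 300-base promoter (250 bases before to 50 after the start) was matched for 13 of the 20 cytosolic and for 14 of the 15 mitochondrial genes (Aars2 with 2), from RefSeq on build GRCm38.p6. None was matched for Cars, Hars, Lars, Nars, Rars, Vars, Wars and Pars2, so no motif could be sought in these genes. The CARE core TGATGNAA, sought on both strands, was in 5 of the 13 cytosolic promoters (38.5%: Aars, Gars, Iars, Tars and Yars), in 0 of 15 mitochondrial promoters and in 3.97% of all 32851 promoters. The E-box CACGTG was in 4 cytosolic promoters (30.8%: Aars, Farsb, Iars and Tars), in 1 mitochondrial promoter (6.67%: Ears2) and in 7.15% of all. Each promoter with a CARE core is shown from base -150 to base 28, where base 1 is the first transcribed base, beside Ears2, the mitochondrial gene with the largest change. Capitals mark CARE cores and E-boxes, and a core on the opposite strand reads as its reverse complement.
Aars (chr8:111033692-111033869, plus strand, E-box from -146 and cores from -112 and 10): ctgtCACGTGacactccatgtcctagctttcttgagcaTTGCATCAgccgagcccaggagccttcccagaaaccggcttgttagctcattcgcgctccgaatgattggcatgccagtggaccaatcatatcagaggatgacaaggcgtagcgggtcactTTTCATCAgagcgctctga
Gars (chr6:55037851-55038028, plus strand, core from -30): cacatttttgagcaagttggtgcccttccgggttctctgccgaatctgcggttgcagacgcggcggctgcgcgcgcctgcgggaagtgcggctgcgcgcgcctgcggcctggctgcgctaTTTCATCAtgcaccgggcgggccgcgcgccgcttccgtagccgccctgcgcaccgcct
Iars (chr13:49681980-49682157, plus strand, E-box from -69 and core from 8): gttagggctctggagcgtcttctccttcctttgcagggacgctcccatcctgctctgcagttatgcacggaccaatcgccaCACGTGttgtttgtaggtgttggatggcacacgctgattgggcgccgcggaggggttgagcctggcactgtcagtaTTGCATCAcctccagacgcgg
Tars (chr15:11399631-11399808, minus strand, core from -15 and E-box from 20): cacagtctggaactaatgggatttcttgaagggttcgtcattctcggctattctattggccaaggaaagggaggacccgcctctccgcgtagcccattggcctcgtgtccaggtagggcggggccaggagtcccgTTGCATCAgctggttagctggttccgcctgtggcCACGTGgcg
Yars (chr4:129189753-129189930, plus strand, core from 4): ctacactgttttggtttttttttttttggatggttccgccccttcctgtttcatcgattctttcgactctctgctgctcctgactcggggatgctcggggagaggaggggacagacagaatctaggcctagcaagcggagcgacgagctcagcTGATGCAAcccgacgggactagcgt
Ears2 (chr7:122067059-122067236, minus strand, E-box from 22): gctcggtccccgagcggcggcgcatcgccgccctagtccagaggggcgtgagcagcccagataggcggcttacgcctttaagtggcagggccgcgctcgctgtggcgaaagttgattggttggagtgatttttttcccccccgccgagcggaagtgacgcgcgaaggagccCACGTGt
Of the 5 genes with a CARE core, Gars, Iars, Tars and Yars fell and Aars, at 0.25, did not pass. The core of the interferon-stimulated response element was in 1 cytosolic promoter (Qars, 7.69%), in 0 mitochondrial promoters and in 3.44% of all. The GAS motif TTCNNNGAA was in 2 cytosolic promoters (Aars and Kars, 15.4%), in 1 mitochondrial promoter (Nars2, 6.67%) and in 8.30% of all. No site of 1 motif overlapped a site of another in these promoters.

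Among the mitochondrial genes Ears2 stood apart. It encodes the glutamyl enzyme of mitochondria, which also loads glutamate onto the mitochondrial glutamine tRNA. It stood at 1.81, 1.90, 1.83 and 1.08 on the LPS arrays, against -0.0040, -0.10, -0.60 and -0.06 on the immature arrays. Every LPS value was over 1 log2 unit above every immature value, although LPS replicate 4 was the lowest of its group and immature replicate 3 of its own. The change was 1.85 ± 0.21, or 3.60-fold higher (limma adjusted p = 0.000158), rested on 1 probe and passed in each of 19 alternative settings (1.64 to 2.04). The glutamate on that glutamine tRNA is turned to glutamine by the GatCAB amidotransferase, whose 3 subunit genes fell: Qrsl1 by 1.22 ± 0.18, Gatc by 0.58 ± 0.10 and Gatb by 0.38 ± 0.07 on the log2 scale (limma adjusted p = 0.000621, 0.00166 and 0.00269). Of the nearest protein-coding genes on either side of Ears2, looked up after its value was seen, Gga2, which follows it on the same strand, changed by 1.94 ± 0.15, and Ubfd1, which starts on the other strand beside the Ears2 promoter, by 0.38 ± 0.12 (limma adjusted p = 1.91e-05 and 0.0259).

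The 4 mitochondrial genes that fell had groups apart and changes close to each other. Rars2 (arginine) lay between 2.24 and 2.60 on the LPS arrays and between 2.62 and 2.89 on the immature arrays, a change of -0.43 ± 0.10. Tars2 (threonine) lay between 3.30 and 3.47 on the LPS arrays and between 3.52 and 3.88 on the immature arrays, a change of -0.39 ± 0.10. In each, the lowest immature array was replicate 3 and the highest LPS array replicate 4. Wars2 (tryptophan) changed by -0.36 ± 0.09 and Lars2 (leucine) by -0.35 ± 0.10. The limma adjusted p of these 4 genes ran from 0.00784 to 0.0141, and all 4 calls were lost with replicates 1 and 2 averaged. The second Tars2 probe gave -0.35 and passed as well, but the second Wars2 probe gave 0.57 and did not pass, so the direction of Wars2 depends on the probe. Values under 0 that did not pass were -0.59 ± 0.60 for Mars2, -0.45 ± 0.20 for Yars2, -0.34 ± 0.15 for Sars2, -0.26 ± 0.12 for Cars2, -0.21 ± 0.10 for Vars2, -0.20 ± 0.08 for Iars2 and -0.08 ± 0.09 for Pars2. Mars2 was well above background on 3 of 4 LPS arrays and on all immature arrays, and spread from -4.13 to -1.84 on the LPS arrays and from -3.46 to -1.70 on the immature arrays. Cars2 and Iars2 each had a second probe that passed in the same direction, at -0.27 and -0.35. Aars2 at 0.08 ± 0.09 and Fars2 at 0.04 ± 0.14 lay close to 0.

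Set side by side by amino acid, 16 pairs of a cytosolic and a mitochondrial gene could be formed, and both genes were tested in 15 of them. The change of the cytosolic gene was the lower of the pair in 10 of 15. For leucine, arginine and threonine both genes fell, with cytosolic and mitochondrial changes of -0.47 and -0.35, -0.64 and -0.43, and -0.62 and -0.39. In 6 pairs the cytosolic gene fell and the mitochondrial gene did not pass. The widest of these was valine, with -1.39 for Vars and -0.21 for Vars2, followed by Farsb at -0.86 against Fars2 at 0.04 and by Iars at -1.07 against Iars2 at -0.20. Glutamate and tryptophan ran in opposite directions: Eprs at -0.42 against Ears2 at 1.85, and Wars at 0.22 against Wars2 at -0.36. For tryptophan this depends on the probe, as the second Wars2 probe gave 0.57, the direction of Wars. The Wars call was also lost in 12 of 20 alternative settings. The differences within pairs were not tested.

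**Figure D3:**
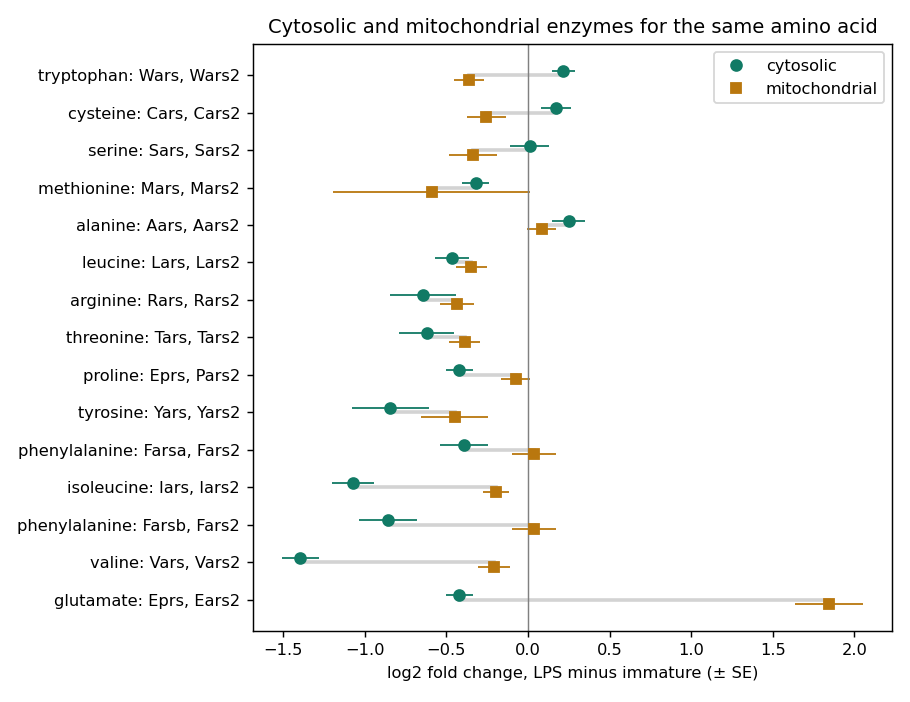
Log2 fold change (LPS minus immature, with SE) of the cytosolic gene (circle) and the mitochondrial gene (square) for the same amino acid, in 15 pairs in which both were tested; Eprs and Fars2 each appear in 2 pairs. The circle lies left of the square in 10 pairs, farthest for glutamate (Eprs and Ears2) and valine.

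Averaged over the 20 cytosolic genes, the log2 level was 2.06, 2.06, 2.09 and 2.22 on LPS arrays 1 to 4, against 2.56, 2.62, 2.35 and 2.53 on immature arrays 1 to 4. The groups did not overlap, and the means differed by -0.41. The average over the 14 mitochondrial genes was 0.58, 0.40, 0.50 and 0.45 on the LPS arrays, against 0.73, 0.75, 0.35 and 0.57 on the immature arrays. These overlapped through immature replicate 3, with a difference of -0.12, or -0.27 without Ears2. The cytosolic average minus the mitochondrial one was 1.63 ± 0.12 on the LPS arrays and 1.91 ± 0.08 on the immature arrays (SD, n = 4 each). It ran from 1.48 to 1.76 on the LPS arrays and from 1.83 to 1.997 on the immature arrays, and the means differed by -0.29, a difference given with no test. Without Ears2 it ran from 1.58 to 1.81 on the LPS arrays and from 1.77 to 1.92 on the immature arrays, so that the groups overlapped and the means differed by -0.14.

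Immature replicate 3 was the lowest immature array for 13 of 20 cytosolic and 12 of 14 mitochondrial genes, and LPS replicate 4 was the highest LPS array for 14 of 20 cytosolic genes and 7 of 14 mitochondrial ones. Immature replicate 3 also differed more from the other immature arrays than these did among themselves. Among tested genes with a probe well above background on all 8 arrays, the scaled median absolute deviation was 0.277 to 0.424 log2, against 0.112 to 0.240. Without immature replicate 3, 15 cytosolic and 9 mitochondrial genes fell, Farsa, Hars, Cars2, Iars2, Sars2, Vars2 and Yars2 being added. Of 23 tested cell cycle genes 22 fell, led by the mitotic genes Ccnb2 at -2.90 ± 0.49 and Cdc20 at -2.69 ± 0.34. Their summed signal, in multiples of the array's 75th percentile, was 103 to 150 on the LPS arrays and 385, 406, 244 and 444 on immature arrays 1 to 4. Immature replicate 3 was thus also the immature array with the lowest cell cycle signal. Of 10 listed genes of neutrophils and their precursors 9 had a matched probe and all 9 fell, with a summed signal of 250 to 455 on the LPS arrays and 744 to 886 on the immature arrays; on LPS arrays 8 of the 9 stayed above background throughout. In these neutrophil sums S100a9 and S100a8 weigh most, and they changed by -0.80 ± 0.16 and -1.37 ± 0.18, so the sums mostly follow that pair. Mpo changed by -4.66 ± 0.42 and Ctsg by -3.87 ± 0.49, genes of proteins of neutrophil granules. Of the mast cell and basophil markers 3 were tested and fell (sums of 0.601 to 1.95 on LPS arrays and 3.38 to 6.22 on immature arrays). Of 6 tested macrophage markers 3 fell and 1 rose (sums of 324 to 383 on LPS arrays and 356 to 423 on immature arrays). In these macrophage sums Csf1r weighs most (log2 means 8.01 LPS and 8.14 immature). Mrc1 changed by -4.23 ± 0.18, C1qa by -2.23 ± 0.13 and Adgre1 by 0.94 ± 0.12. The part of these cells in the synthetase levels was not tested.

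**Figure D4:**
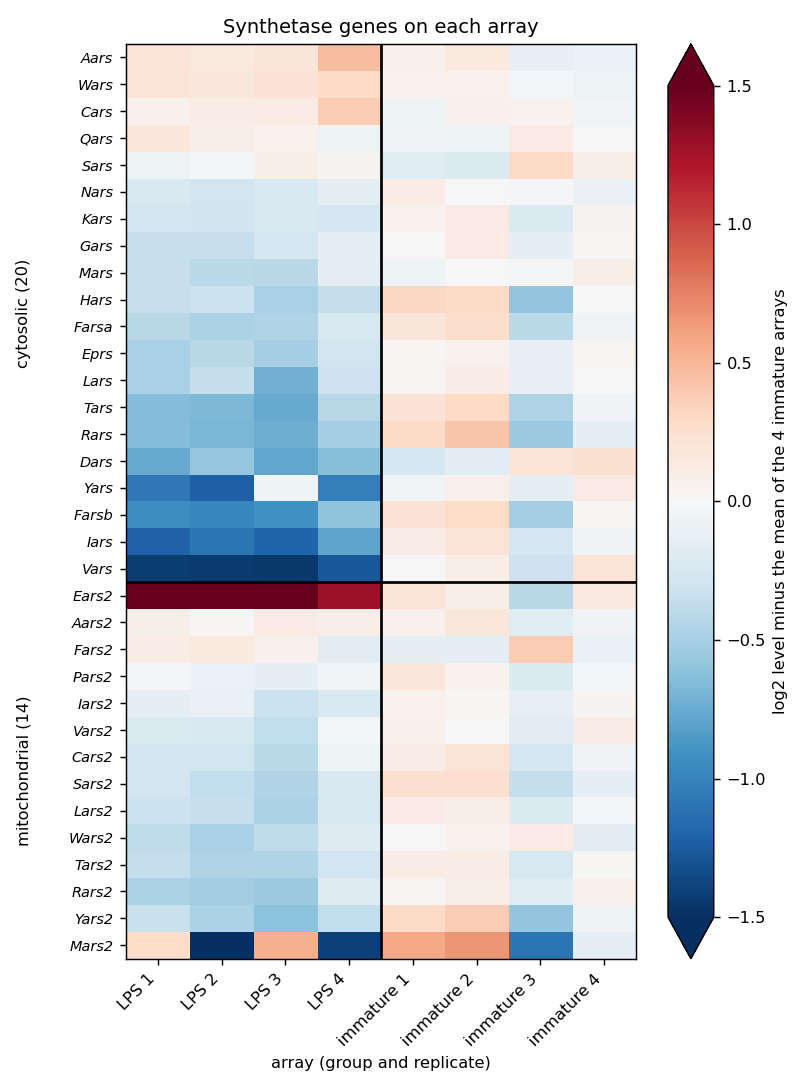
Log2 level of each tested synthetase gene (rows) on each array (columns, LPS left and immature right) minus the mean of its 4 immature arrays, in colour from blue (lower) to red (higher) and clipped at 1.5 either way. Cytosolic rows are mostly blue on all 4 LPS arrays, Ears2 is red on all 4, and immature replicate 3 is bluer than the other immature arrays for most genes of both compartments.

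Genes of the steps around tRNA charging fell in part, where 24.6% of all tested genes fell and 31.4% rose. Of 19 genes for accessory and quality-control factors of tRNA charging, 9 fell, 3 rose and 7 did not pass, with a median of -0.21. Ptrh2, a peptidyl-tRNA hydrolase, fell by 1.32 ± 0.15 on the log2 scale, and Xpot, the exporter of tRNA from the nucleus, by 0.38 ± 0.10. Sepsecs, which completes selenocysteine on its tRNA, rose by 0.65 ± 0.16 (limma adjusted p = 0.00927). Of 11 cytosolic elongation and termination genes 8 fell and 2 rose, with a median of -0.49. Among them Eef2k, the kinase that inhibits elongation factor 2, changed by -1.57 ± 0.21, Eef1g, a subunit of the elongation factor 1 exchange complex, by -0.79 ± 0.11 and the GTPase gene Gtpbp1 by 0.62 ± 0.09.

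On the mitochondrial side, 7 of 17 genes for translation factors and mitochondrial expression fell and 2 rose, with a median of -0.30. Guf1, a mitochondrial elongation factor, changed by -0.72 ± 0.13, Tfb1m, which methylates mitochondrial ribosomal RNA, by -0.70 ± 0.10 and the initiation factor gene Mtif3 by 0.56 ± 0.07. Of 77 mitochondrial ribosomal protein genes 22 fell and 15 rose (median -0.12), and of 78 cytosolic ribosomal protein genes 45 fell and 2 rose (median -0.26). Mrps28 changed by -0.84 ± 0.21, Mrps26 by -0.71 ± 0.10 and Mrpl13 by 1.22 ± 0.09, and on the cytosolic side Rpl3 by -0.83 ± 0.09, Rpl5 by -0.76 ± 0.10 and Rps27l by 0.84 ± 0.11. The mitochondrial ribosomal count that fell, 28.6% of the list against 24.6% of all genes, was 40 without immature replicate 3, 12 without immature replicate 1 or 2, 13 without immature replicate 4, 14 without LPS replicate 2 or 3, 7 with replicates 1 and 2 averaged and 15 to 36 under the other scalings.

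Genes of the integrated stress response, which uncharged tRNA switches on through GCN2, 1 of its kinases, rose in part. Of 21 genes of the response and its kinases 12 rose, 1 fell and 8 did not pass, where 31.4% of all tested genes rose. The count that rose was 10 to 12 under the other scalings, 9 with replicates 1 and 2 averaged and 9 to 14 when 1 array was left out. The median change was 0.49, and it kept its sign under each scaling of the arrays (0.28 to 0.46). Atf4 rose by 0.31 ± 0.10 (limma adjusted p = 0.0267), a call lost in 11 of 19 alternative settings. Its downstream transcription factor gene Ddit3 (CHOP) rose by 1.51 ± 0.14, Nupr1 by 1.93 ± 0.20 and Ddit4, an inhibitor of mTORC1, by 2.20 ± 0.71, a call lost in 7 settings. Eif2ak3, the gene of the endoplasmic reticulum stress kinase PERK, fell by 0.31 ± 0.08. Of the other listed kinase genes of this family, Eif2ak2 rose by 1.18 ± 0.21 (limma adjusted p = 0.00175) and Eif2ak1, at 0.05 ± 0.06, did not pass. Values that did not pass were -0.40 ± 0.41 for Chac1, 0.65 ± 0.54 for Trib3 and 0.27 ± 0.11 for Eif2ak4, which encodes GCN2. In the same comparison, 8 of the 12 cytosolic synthetase genes on the ATF4 target list fell, and so did 5 of the 8 not on it. Among all tested genes 24.6% fell.

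Of 19 amino acid synthesis genes 9 fell and 5 rose, with a median of -0.29, where 24.6% of all tested genes fell and 31.4% rose. Psat1, of serine synthesis, changed by -1.87 ± 0.15. Shmt1, of serine and glycine conversion, fell too, but passed the filter on dim probes through its immature arrays alone. Its levels were -4.49 to -3.78 on the LPS arrays, of which 1 was well above background, and -3.33 to -1.99 on the immature arrays, so no size is given. Cbs, also among the 9 that fell, was well above background on 4 immature arrays and on 0 LPS arrays, so its size is not given either. Ass1, which makes argininosuccinate on the way to arginine, changed by 1.01 ± 0.11, and Asns, the asparagine synthetase gene and an ATF4 target, gave -0.36 ± 0.27 and did not pass. Of 20 amino acid transporter genes 10 rose and 6 fell, where 31.4% of all tested genes rose and 24.6% fell. The 6 that fell were 30.0% of the list, near the share of all genes. Slc7a2, an importer of arginine and lysine, rose by 2.89 ± 0.20. Slc7a3, of the same family, rose as well, but passed the filter through its LPS arrays alone. Its levels were -2.81 to -2.22 on the LPS arrays and -5.88 to -3.01 on the immature arrays, of which 2 were well above background, so no size is given. Slc7a5, the light chain of the leucine importer LAT1, fell by 1.83 ± 0.40, while Slc3a2, the gene of its heavy chain, rose by 0.95 ± 0.11. Of 21 genes of amino acid sensing by mTORC1 6 rose and 5 fell, shares near the 31.4% and 24.6% of all tested genes. The count that fell was 3 without immature replicate 1 or 2 or LPS replicate 1 or 3 and with scaling to spike-ins, and 2 with replicates 1 and 2 averaged. The called genes were led by the arginine sensor gene Castor1 at 2.94 ± 0.32 and its relative Castor2 at 1.48 ± 0.16, with Rheb, the GTPase that activates mTORC1, at -0.64 ± 0.10.

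**Figure D5:**
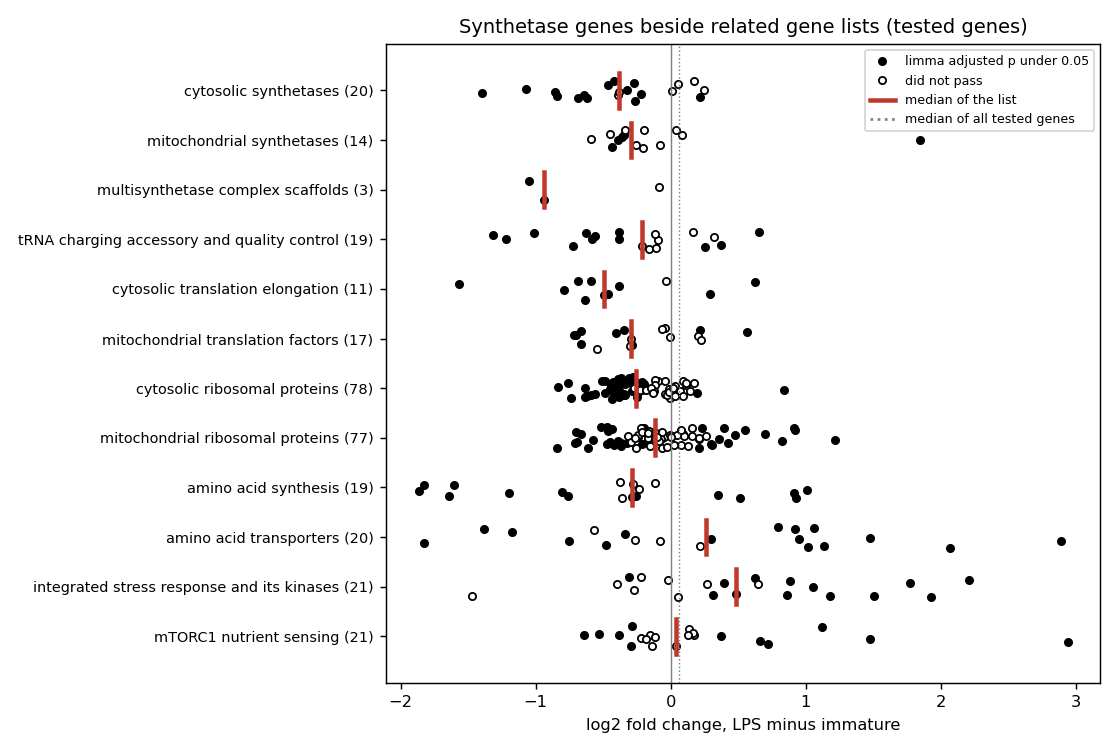
Log2 fold change (LPS minus immature) of every tested gene (points; filled where the limma adjusted p was under 0.05) in the 2 synthetase groups and in 10 related lists, with each list's median as a red bar and the median of all tested genes, 0.06, as a dotted line. The medians of both synthetase groups, at -0.39 and -0.30, lie left of 0, and that of the integrated stress response list lies right of it at 0.49.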

How the data were processed

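Total RNA of 4 LPS and 4 immature samples was labelled with Cy3. Agilent Feature Extraction 11.0.1.1 turned the scans into spot values, per the file headers. The deposited processed signal is an intensity, background-subtracted per the file headers and not scaled between arrays. The files also hold the deposited median spot and local background intensity and, as other columns, 0 or 1 flags for spots well above background, saturated or outliers.

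Outlier spots (122 to 206 of 59305 per array) were left out, log2 signals of a probe's spots averaged, and each array's 75th percentile subtracted. Of 55681 probes 27509 matched a single gene through their transcript accession in RefSeq, and Mars was matched as Mars1. The brightest probe stood for a gene, and 12706 genes were tested, those with that probe well above background on every array of a group. The groups were compared by the moderated test of limma 3.58.1 (lmFit, eBayes) in R 4.3.3 (statmod 1.5.0 and version 1.17.8 of data.table), two-sided, Benjamini-Hochberg adjusted over all tested genes, at 0.05. The script was tested on simulated data. Tables and figures used Python 3.11.15, numpy 2.4.6, pandas 2.3.3 and matplotlib 3.10.9.

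The members and lists were chosen with earlier results of these data known. Values on all arrays are given for the 6 largest called falls, all called rises, Wars, Gars and Kars. From each related list the text names 3 called genes by size of change, 2 of the direction that more genes took and 1 of the opposite one. Atf4, Asns, Ddit3, Chac1, Trib3, Eif2ak4, Aimp1, Aimp2, Eef1e1 and Xpot are always named. Gatb, Gatc, Cbs, Csf1r, S100a8, S100a9, Slc3a2, Eif2ak1, Eif2ak2 and the genes next to Ears2 were added after their values were seen. The planned promoter display, called risers with a CARE core and Wars, had no entry, so the promoters shown were chosen afterwards. Alternatives changed 1 choice at a time: normexp background, 5 other scalings, the filter, the probe, a replicate block, averaged replicates, the variance model and leaving out each array. The number of arrays limits the precision.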

Additional observations from a re-analysis of the deposited data

Results flagged for a closer look

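In 7 of the 70 gene-by-group sets of 4 arrays, 1 array lay far from the other 3, where chance gives about 1 in 20. Ears2 was at 1.08 on LPS replicate 4, with the other LPS arrays between 1.81 and 1.90, and at -0.60 on immature replicate 3, with the other immature arrays between -0.10 and -0.0040. Vars was at 0.38 on LPS replicate 4 (others 0.21 to 0.23) and Aars at 3.79 on the same array (others 3.48 to 3.53). On immature replicate 3, Eprs was at -0.031 (others 0.13 to 0.15), Iars2 at 0.49 (others 0.65 to 0.66) and Fars2 at 3.86 (others 3.33 to 3.37). Of these 7, 4 fell on immature replicate 3, the array whose cell cycle signal was the lowest of its group, and the cause was not tested.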

How the results depend on the processing

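The changes of Vars, Iars, Farsb, Dars, Eprs, Lars and Ears2 kept their direction and passed in each of 19 alternative settings. The count of cytosolic genes that rose, 1, was 0 with scaling to the array median, to detected probes or to spike-ins, with quantile normalization, with no scaling, with the second probe, with the replicate block and with replicates 1 and 2 averaged, 2 with the trended robust variance, and 0 to 2 when 1 array was left out. The count that fell, 13, was 9 with scaling to spike-ins, 6 with replicates 1 and 2 averaged and 9 to 15 when 1 array was left out (15 without immature replicate 3). The mitochondrial count that fell, 4, was 9 with scaling to the array median, 8 with scaling to detected probes, 9 with no scaling, 0 with replicates 1 and 2 averaged, and 4 to 9 when 1 array was left out (9 without immature replicate 3). The mitochondrial count that rose stayed at 1 in every setting run. Replicates 1 and 2 were the closest pair in each group. Their scaled median absolute deviation was 0.132 log2 on LPS arrays and 0.112 on immature arrays, against at least 0.179 and 0.237 for other pairs. Averaging them leaves fewer samples, and whether the lower counts came from that was not tested. The cause of the other shifts was not tested either. Same-numbered replicates share only a number (correlations of their deviations 0.19, 0.02, 0.05 and -0.10). With the replicate block, 10 cytosolic genes fell and 0 rose, Gars, Kars, Nars and Wars losing their call, and 4 mitochondrial genes fell and 1 rose. Wars2 changed sign, to 0.11 as the average over both probes and to 0.57 by the second probe alone. Scaling to the array median, no scaling and no filter moved the median of all genes by -0.18, -0.21 and 0.20 log2. Of all called genes 38.4%, 35.3% and 71.0% were then higher, against 56.1%. The cytosolic median relative to all genes was -0.44 in the first pair as before. It could not differ there, because changing the value subtracted from an array shifts all its genes alike. The cytosolic median lay between -0.59 and -0.31 in all settings. Normexp used the median spot signal, and gene names from a name column could not be run, as the files used here hold no such column. Changes of about 0.2 log2, such as Nars, Wars, Gars and Kars, are near what 4 arrays a group can show.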
